A study of Mus musculus with 12 samples.

Results

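Marrow taken 7 days after a flame burn was compared with marrow of sham-treated mice, both given an isotype control antibody, across all genes of the deposited count table. The 8 libraries used here, of 12 in the series, were chosen by the injury and antibody in their labels. The sham group holds replicates 1 to 4 and the burn group replicates 5 to 8. All mice were female C57BL/6J, 8 weeks old, with no transgene or mutation named, and whole bone marrow cells were sequenced. Antibody dosing began 12 hours ahead of the injury, was repeated when the injury was made and went on each day until harvest on day 7. A group of 4 libraries from burned mice given an antibody against granulocyte colony-stimulating factor (G-CSF) entered the expression filter, the scaling, the estimate of the spread between libraries and the principal components, but neither side of the comparison. Sham and burned mice thus share the isotype antibody, and mice given no antibody were not analysed here. The labels do not say whether a library held 1 mouse or a pool.

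Marrow makes neutrophils, monocytes, red cells, lymphocytes and platelets from shared stem and progenitor cells. Neutrophil precursors fill their granules in a set order, with primary granules made by promyelocytes, secondary granules by myelocytes, and the surface receptors of circulating cells made last. G-CSF acts through its receptor and the factor STAT3 on this lineage. Red cell precursors mature around a central macrophage, the erythroblastic island, whose macrophage expresses the transcription factor Spi-C, holds the erythroblasts by adhesion molecules, takes up the nuclei they shed and recycles iron from heme.

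The 8 libraries held 19684775 to 25708084 gene counts, and 15283 of 24415 genes passed the expression filter. Marker genes of all marrow lineages were detected, with 3 exceptions to what whole marrow would hold. The adult globin genes Hba-a1, Hba-a2, Hbb-b1, Hbb-b2, Hbb-bs and Hbb-bt had between 0 and 2 counts each over the 8 libraries. The neutrophil gene Ly6g had no matching entry among the 24415 genes, so its level could not be measured. Genes typical of brain, of heart and of lens gave counts in every library. The 18 brain genes summed to 643 to 766 CPM (a gene's counts relative to its library's total, adjusted by TMM factors and set to a common size) in sham and 558 to 1116 CPM after burn, so the groups overlapped, with burn library 6 lowest and burn library 7 highest. The 10 heart genes summed to 303 to 354 CPM in sham and 195 to 536 CPM after burn, and the 10 lens genes to 89.6 to 118 and 68.5 to 182 CPM. Over all 12 libraries a principal component with 66.3% of the variance ordered them much as the brain score did, and the second, with 21.7%, separated burn from sham with isotype antibody. When the brain score was a covariate, 3161 of the 3207 genes called below were called again. In bulk marrow, fewer cells of a type, less RNA per cell and dilution by RNA of other cells cannot be told apart. This holds for every result here.

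Burn changed 3207 genes at an adjusted p under 0.05, which is 21.0% of all genes tested (Benjamini-Hochberg adjusted, from edgeR's quasi-likelihood test). Every adjusted p below is from this test and fit unless another test or fit is named. Of the 3207 genes 1691 were higher after burn, 11.1% of those tested, and 1516 were lower, 9.92%. Most changes were modest: 1036 of the higher and 868 of the lower genes differed by less than 1.5-fold, 131 and 150 by more than 2-fold, and 11 and 9 by more than 4-fold. The median log2 fold change was 0.51 among the higher and -0.53 among the lower genes, against -0.00026 over all genes tested. The 4 burn libraries lay wholly above the 4 sham libraries for 1563 of the higher genes and wholly below for 1324 of the lower ones, against 12.9% and 11.8% of all genes tested. Those shares include the called genes, and the calls rest on the same values, so the separation is no further evidence for them. The higher genes took 25.1% of all CPM in sham and 35.7% after burn, and the lower genes 18.3% and 11.9%. Calls were more frequent among abundant genes, from 1.67% below an average of 0 on the log2 CPM scale to 39.3% at 6 or above. Scaling by library totals alone moved the median of all genes by -0.10 on the log2 scale and the split to 1276 higher and 2846 lower, or 31.0% higher in place of 52.7%. Without burn library 5 the genes over 2-fold numbered 86 higher and 80 lower.

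**Figure D1:**
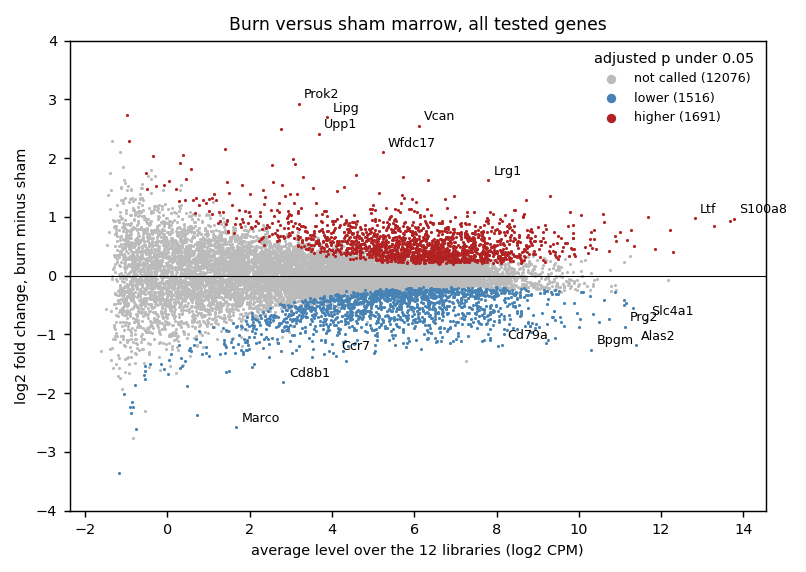
Log2 fold change of burn over sham against the average level of each of the 15283 tested genes, with the 1691 higher genes in red, the 1516 lower genes in blue and the rest in grey. Rises and falls occurred at all levels, with Prok2, Lipg and Vcan among the largest named rises and Marco and Cd8b1 among the largest named falls.

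Neutrophil genes of each stage rose after burn. Of 13 tested primary granule and promyelocyte genes 8 rose and 0 fell, of 19 secondary granule genes all 19 rose, and of 27 band and segmented neutrophil genes 20 rose and 0 fell, where 11.1% of all genes tested were higher and 9.92% lower. The median log2 fold changes were 0.47, 0.85 and 0.80, against -0.00026 over all genes. The secondary granule genes together took 25338 to 30475 CPM in the sham and 43998 to 59420.0 CPM in the burn libraries. Ltf, the iron-binding granule protein lactoferrin, stood at 6471, 6309, 5588 and 5394 CPM in sham libraries 1 to 4 and at 14150.0, 12360.0, 9870.4 and 10547 CPM in burn libraries 5 to 8. Every burn library lay above every sham library, with library 5 highest, and the log2 fold change was 0.98 ± 0.13 (SE, adjusted p = 5.96e-05). The serine protease Prtn3 of primary granules went from 271, 299, 234 and 237 CPM in sham to 670.4, 540.4, 492 and 549.9 CPM after burn, a change of 1.11 ± 0.11 (SE, adjusted p = 6.81e-06) on the log2 scale and the largest of its list. Elastase, Elane, and myeloperoxidase, Mpo, abundant products of the same granules, changed by 0.58, adjusted p = 0.00214 and 0.47, adjusted p = 0.00242. Among the other secondary granule genes the iron-siderophore binder Lcn2 changed by 1.01, adjusted p = 2.74e-05, haptoglobin, Hp, by 1.09, adjusted p = 2.13e-05, the adhesion family member Ceacam10 by 1.15, adjusted p = 2.50e-05, and the collagenase Mmp8 by 0.63, adjusted p = 0.0016.

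The anti-inflammatory annexin Anxa1 was the secondary granule list member with the smallest p. It stood at 1377, 1268, 1198 and 1094 CPM in sham and 3007, 2632, 2277 and 2339 CPM after burn, with no overlap, at 1.05 ± 0.11 (SE, adjusted p = 1.12e-05). The 250 bases before its annotated start and those of Prtn3, the primary granule gene with the smallest p, are shown because they hold short matches to motifs of the myeloid factors PU.1 and C/EBP. Both windows come from RefSeq on GRCm38.p6, Anxa1 at chr19:20390672-20390921, minus strand, and Prtn3 at chr10:79879417-79879666, plus strand. Each runs 5′ to 3′ on the gene's own strand, with matches on either strand in capitals.
Anxa1: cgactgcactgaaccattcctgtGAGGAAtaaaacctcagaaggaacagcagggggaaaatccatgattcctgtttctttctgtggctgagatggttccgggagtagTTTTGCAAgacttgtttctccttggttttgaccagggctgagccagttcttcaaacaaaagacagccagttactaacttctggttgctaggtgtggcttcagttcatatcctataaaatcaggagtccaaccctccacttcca
Prtn3: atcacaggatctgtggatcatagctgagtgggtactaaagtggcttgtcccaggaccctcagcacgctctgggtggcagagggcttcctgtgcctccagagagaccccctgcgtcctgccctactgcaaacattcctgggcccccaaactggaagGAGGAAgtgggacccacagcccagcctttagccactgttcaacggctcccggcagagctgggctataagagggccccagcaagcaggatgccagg
The motifs searched were GAGGAA for PU.1, TTGCNNAA for C/EBP, TTCNNNGAA for STAT factors, AGATAA for GATA factors, CCNCACCC for KLF factors and CCCNNGGG for EBF. The Anxa1 window holds GAGGAA beginning 227 bases and a C/EBP match beginning 143 bases before the start, and the Prtn3 window holds GAGGAA at 95 bases. GAGGAA occurs in 23.1% of all 27025 promoter windows of this length, in 10 of 15 windows of the secondary granule list and in 6 of 11 of the primary granule list. TTGCNNAA occurs in 9.55% of all windows and in 6 of 15 of the secondary granule list. These matches are descriptions of letters and were not tested.

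Among genes of the last neutrophil stages, the secreted glycoprotein Lrg1 rose most, from 141, 119.9, 211 and 114 CPM in sham to 526, 496, 386 and 401 CPM after burn, at 1.63 ± 0.19 (SE, adjusted p = 7.68e-05). Its groups did not overlap, with sham library 3 the highest of its group. The skin-type aspartic protease Asprv1 changed by 1.30, adjusted p = 0.00236, the membrane-bound metalloproteinase Mmp25 by 1.00, adjusted p = 2.29e-05, the gelatinase Mmp9 by 0.91, adjusted p = 2.53e-04 and the decoy interleukin-1 receptor Il1r2 by 0.85, adjusted p = 0.00511. S100a9, which forms calprotectin with S100a8, changed by 0.93, adjusted p = 3.94e-05. Within the S100 and annexin families 13 of 18 genes rose and 0 fell, with S100a6 at 0.99, adjusted p = 5.06e-05. Of 6 tested stefin A genes, inhibitors of cysteine proteases that lie in a cluster of near-identical copies, 5 rose, led by Stfa2 at 1.28, 1.57, 1.57 and 0.643 CPM in sham and 9.13, 4.05, 4.04 and 5.41 CPM after burn (2.15 ± 0.34 (SE, adjusted p = 2.04e-04)). Reads of one copy may have been counted for another, and Stfa3 at 0.65 was not called. Stfa3 was called higher without library 8 (0.80, adjusted p = 0.0222), by DESeq2's Wald test (0.67, adjusted p = 0.0254) and with the brain score as a covariate (0.69, adjusted p = 0.0243). The phagocyte NADPH oxidase, which makes superoxide, had 6 of 7 subunit genes higher, with Ncf4 at 0.82, adjusted p = 6.47e-05 and Cybb at 0.78.

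**Figure D2:**
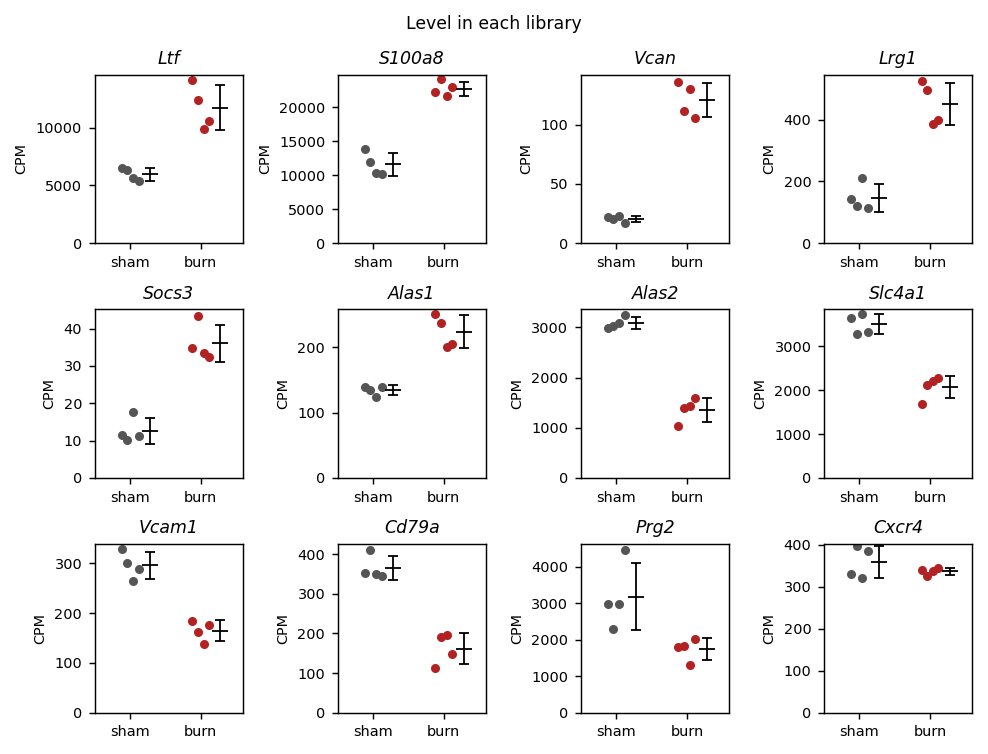
CPM of 12 genes in each sham library (grey) and burn library (red), with the mean and SD of each group (n = 4) in black, each panel starting at 0. Ltf, S100a8, Vcan, Lrg1, Socs3 and Alas1 lie higher in all 4 burn libraries, Alas2, Slc4a1, Vcam1, Cd79a and Prg2 lower, and Cxcr4 overlaps.

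The retention receptor Cxcr4, which holds neutrophils in marrow by binding the stromal chemokine Cxcl12, stood at 331, 397, 321 and 384 CPM in sham and 339, 326, 337 and 344 CPM after burn. These ranges overlapped and the change of -0.09 ± 0.09 (SE, adjusted p = 0.555) was not called, while the release receptor Cxcr2 went from 319.5, 284, 331 and 308 to 567, 646, 513 and 511 CPM, a rise of 0.85 ± 0.14 (SE, adjusted p = 4.06e-04). Of 26 chemokine and chemoattractant receptors 11 rose and 7 fell. The risers named here are found on myeloid cells, with the formyl peptide receptor Fpr2 at 0.97, adjusted p = 2.71e-05 and the monocyte receptor Ccr2 at 1.01, adjusted p = 5.38e-04. The fallers include receptors known from lymphocytes and dendritic cells, with Ccr7 at -1.37, adjusted p = 4.62e-05, Ccr9 at -0.91, adjusted p = 0.0144 and the sphingosine phosphate receptor S1pr1 at -0.88, adjusted p = 0.00262. Also lower were Ccr3, which is in the eosinophil list too, at -0.68, adjusted p = 0.00328 and Ccrl2 at -0.67, adjusted p = 0.0061. The B cell chemokine receptor Cxcr5 changed by -1.20, adjusted p = 0.0173, and without sham library 2 its call ended (-1.06, adjusted p = 0.0559).

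The G-CSF transcript Csf3 had 2 counts in sham library 1 and 0 in the other 7 libraries, so its change could not be measured in marrow RNA. Its receptor Csf3r went from 439.5, 392, 460.3 and 506 CPM in sham to 573, 665, 659.9 and 663 CPM after burn, at 0.51 ± 0.11 (SE, adjusted p = 0.00349). All burn libraries lay above all sham libraries, with library 5 the lowest of the burn group. Stat3, the factor downstream of it, was 174 ± 5.36 CPM in sham and 285 ± 36.3 CPM after burn, at 0.71 ± 0.10 (SE, adjusted p = 6.21e-05). Socs3, the feedback inhibitor that STAT3 induces, stood at 11.6, 10.1, 17.8 and 11.2 CPM in sham and 34.8, 43.4, 33.5 and 32.5 CPM after burn. The groups did not overlap, with sham library 3 highest of its group, and the change was 1.51 ± 0.18 (SE, adjusted p = 2.74e-05). Across 23 SOCS, PIM, STAT and JAK genes with Bcl3, 8 rose and 1 fell, with a median of 0.03, and the number that fell was 2 without library 2 or 8, with the brain score as a covariate or by DESeq2's Wald test, and 5 against 6 higher with scaling by library totals. The risers included Jak3, a kinase of the common gamma chain receptors, at 0.97, adjusted p = 1.83e-05, the NF-kB cofactor Bcl3 at 1.11, adjusted p = 0.00443 and the STAT5 target Cish at 0.77, adjusted p = 0.00148, and the faller was the kinase Pim2 at -0.69, adjusted p = 0.00203. Jak1 at 0.05 was not called.

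The Socs3 window, chosen after its values were seen, is printed for its STAT match, which begins 154 bases before the start (chr11:117969367-117969616, minus strand, RefSeq on GRCm38.p6).
Socs3: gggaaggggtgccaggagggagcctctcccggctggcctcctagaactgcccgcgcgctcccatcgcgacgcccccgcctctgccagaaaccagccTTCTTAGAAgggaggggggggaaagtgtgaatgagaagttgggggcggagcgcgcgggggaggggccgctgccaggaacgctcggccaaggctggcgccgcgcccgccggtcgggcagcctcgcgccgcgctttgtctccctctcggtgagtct
TTCNNNGAA occurs in 7.18% of all windows, in 6.06% of those of 12042 tested genes, in 5.93% of those of genes higher after burn and in 1 of 18 windows of the list. The window of Jak3, the list member with the smallest p, held none of the 6 motifs.

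Of 28 haematopoietic cytokine receptor genes 12 rose and 4 fell. The common beta chain of the GM-CSF, IL-3 and IL-5 receptors, Csf2rb, changed by 1.04, adjusted p = 9.41e-06 and its mouse paralog Csf2rb2, with which it may share reads, by 0.81, adjusted p = 4.76e-05. The IL-13 receptor chain Il13ra1 changed by 1.01, adjusted p = 3.17e-05, and its partner Il4ra by 0.78, adjusted p = 1.31e-04. Among the fallers were Il7r, required for lymphocyte precursors, and the erythropoietin receptor Epor. The count of lower receptors was 2 without library 1, 5, 7 or 8. Of 26 transcription factors of the myeloid lineages 12 rose and 0 fell, with Cebpb, the C/EBP factor of emergency neutrophil production, at 0.86, adjusted p = 8.36e-04, Nfil3 at 0.86, adjusted p = 2.95e-05 and Klf5 at 0.75, adjusted p = 0.00641.

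Monocyte genes rose as well. Of 17 classical monocyte genes 14 rose and 0 fell, with a median of 0.74, and of 12 nonclassical monocyte genes 9 rose and 0 fell, with a median of 0.59. Vcan encodes versican, a large matrix proteoglycan that classical monocytes express (chromosome 13, 89655310 to 89742512, minus strand in mm10), and had the smallest p of all genes tested. It stood at 22.3, 20.2, 22.8 and 17.3 CPM in sham and 136, 112, 130.2 and 106 CPM after burn. The lowest burn library was several times the highest sham library, and the log2 fold change was 2.55 ± 0.11 (SE, adjusted p = 2.39e-10). The coagulation factor F10 changed by 1.37, adjusted p = 1.01e-04, the transglutaminase F13a1 by 0.86, adjusted p = 1.08e-04, fibronectin, Fn1, by 0.68, adjusted p = 0.00804, and the lipopolysaccharide co-receptor Cd14 by 0.76, adjusted p = 0.00281. Library 5 stood above the other burn libraries for Ccr2 and Fn1. Irf8, the factor that directs progenitors to the monocyte lineage, was 315 ± 13.1 CPM in sham and 267 ± 43.6 CPM after burn and was not called (-0.24 ± 0.10 (SE, adjusted p = 0.115)). It was called lower without library 6 (-0.33, adjusted p = 0.0265) and with scaling by library totals (-0.35, adjusted p = 0.00568).

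The promoter window of Vcan, the classical monocyte gene with the smallest p, is given for its KLF matches (chr13:89742513-89742762, minus strand, RefSeq on GRCm38.p6).
Vcan: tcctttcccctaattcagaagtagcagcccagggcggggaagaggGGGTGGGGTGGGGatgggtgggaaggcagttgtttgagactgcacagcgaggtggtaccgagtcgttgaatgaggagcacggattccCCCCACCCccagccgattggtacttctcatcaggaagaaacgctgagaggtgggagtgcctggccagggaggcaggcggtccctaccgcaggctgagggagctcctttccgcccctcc
The matches to CCNCACCC or its reverse complement begin 205, 200 and 118 bases before the start, and the first and second overlap. This motif occurs in 14.7% of all windows, 18.2% of those of tested genes and 2 of 14 windows of the list.

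Among nonclassical monocyte genes the activating receptor Cd300e stood at 5.76, 4.11, 2.80 and 3.41 CPM in sham and 11.7, 13, 8.25 and 18.5 CPM after burn, at 1.67 ± 0.26 (SE, adjusted p = 2.32e-04). Angiotensin-converting enzyme, Ace, went from 24.9, 28.9, 28.2 and 22.9 CPM to 61.9, 70.0, 56.5 and 74.5 CPM, at 1.33 ± 0.14 (SE, adjusted p = 1.76e-05). Neither gene overlapped between groups, and library 8 was the highest for both. Of 23 myeloid C-type lectins and paired receptors 16 rose and 1 fell, or 2 fell with scaling by library totals. Trem2, a lipid-sensing receptor of macrophages, changed by 1.39, adjusted p = 0.00675, the fungal and necrotic cell sensor Clec4e by 1.13, adjusted p = 1.84e-05 and the inhibitory receptor Pirb by 0.97, adjusted p = 9.99e-06. The single faller was Cd209a, a lectin of monocyte-derived dendritic cells, at 22.9, 27.7, 21.3 and 16.5 CPM in sham and 6.45, 11.3, 8.99 and 8.15 CPM after burn (-1.34 ± 0.19 (SE, adjusted p = 8.36e-05)). Of 6 IgG Fc receptor genes 4 rose, including Fcgr4 at 0.78, adjusted p = 0.00349 and the shared signalling chain Fcer1g at 0.59, adjusted p = 5.12e-04.

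Genes of resident and island macrophages went the other way. Of 25 such genes 17 fell and 0 rose, with a median of -0.77, and their summed level was 1588 to 1904 CPM in sham and 993 to 1244 CPM after burn. Spic stood at 18.7, 15.1, 17.5 and 14.6 CPM in sham and 11.7, 6.67, 7.03 and 9.84 CPM after burn. The adhesion molecule Vcam1, which holds erythroblasts on the macrophage, went from 328, 301, 265 and 289 to 184, 161, 137 and 177 CPM. Both genes were lower in every burn library than in any sham library, and library 7 was the lowest of the 8 for Vcam1. The phosphatidylserine receptor Timd4 fell from 8.59, 9.29, 7.06 and 8.16 CPM to 3.29, 3.64, 3.78 and 4.25 CPM, at -1.14 ± 0.19 (SE, adjusted p = 3.22e-04). The lipid-binding secreted protein Cd5l changed by -1.15, adjusted p = 2.26e-04, the ficolin Fcna by -1.11, adjusted p = 6.10e-04, the receptor kinase Axl by -0.77, adjusted p = 5.06e-05 and the hemoglobin-haptoglobin receptor Cd163 by -0.76, adjusted p = 1.59e-04. The scavenger receptor Marco was low in all libraries, at 1.82, 7.46, 1.96 and 5.09 CPM in sham and 1.04, 0.513, 0.26 and 0.886 CPM after burn. Its change of -2.58 ± 0.64 (SE, adjusted p = 0.0108) was not called by limma-voom (-2.44, adjusted p = 0.0586). Apoe at -0.22 was not called, but was called lower without library 3 (-0.30, adjusted p = 0.0327) and with scaling by library totals (-0.32, adjusted p = 0.00583).

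The mannose receptor Mrc1 had the smallest p of the list, and its window is printed for its matches to the PU.1 motif (chr2:14229164-14229413, plus strand, RefSeq on GRCm38.p6).
Mrc1: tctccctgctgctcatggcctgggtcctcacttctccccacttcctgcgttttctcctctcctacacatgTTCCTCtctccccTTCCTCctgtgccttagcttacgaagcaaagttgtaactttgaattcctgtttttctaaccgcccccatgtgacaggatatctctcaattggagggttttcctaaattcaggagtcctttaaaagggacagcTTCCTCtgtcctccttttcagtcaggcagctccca
Reverse complements of GAGGAA begin 180, 167 and 35 bases before the start. The motif occurred in 9 of 17 windows of the list, and in 27.2% of the windows of all genes higher and 22.0% of those of genes lower after burn.

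Genes listed for heme and iron recycling by macrophages split, and which marrow cells their changes came from was not tested. Of 14 such genes 6 fell and 5 rose, and 3 rose without library 2, 4, 5 or 6 or with scaling by library totals. The heme oxygenase Hmox1 went from 172, 233, 211 and 199 CPM to 136, 135, 109 and 116 CPM, at -0.72 ± 0.15 (SE, adjusted p = 0.00308). Biliverdin reductase B, Blvrb, changed by -0.90, adjusted p = 3.72e-04 and the ferritin heavy chain Fth1 by -0.35, adjusted p = 0.00743, while the iron exporter Slc40a1 at -0.13 was not called. The ferritin light chain Ftl1 at -0.25, adjusted p = 0.076 was not called either, but was called lower without library 6 (-0.31, adjusted p = 0.0402), by DESeq2's Wald test (-0.24, adjusted p = 0.0335), with scaling by library totals (-0.36, adjusted p = 0.00274) and with the 20 most abundant genes left out (-0.28, adjusted p = 0.0362). Lrp1, a receptor for heme bound to hemopexin, rose by 0.95 ± 0.11 (SE, adjusted p = 1.51e-05), and so did Bach1, the heme-sensing repressor of Hmox1, by 0.48 ± 0.08 (SE, adjusted p = 2.11e-04). The genes of apoptotic cell and nucleus uptake also split, with 4 higher and 5 lower of 19. The bridging protein Pros1 rose by 0.86, adjusted p = 6.15e-05 and the engulfment factor Dock1 by 0.79, adjusted p = 1.90e-04, while the scavenger receptor Cd36 fell, at -0.75, adjusted p = 0.00242.

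Red cell genes fell at early and late stages. Of 15 early erythroid progenitor and regulator genes 13 fell and 0 rose, and of 22 late erythroblast genes 19 fell and 0 rose, with medians of -0.59 and -0.75. Leaving out any 1 library gave 17 to 19 lower late genes. Among early genes Gata2, a factor of progenitors before erythroid commitment, changed by -0.59, adjusted p = 6.21e-04, the progenitor factor Myb by -0.51, adjusted p = 0.00225 and the adaptor Lmo2 by -0.50, adjusted p = 9.08e-04. The stem cell factor receptor Kit at -0.14 and the factor Nfe2 at 0.12 were not called. The erythroid regulator Klf1 stood at 194, 173, 158 and 149 CPM in sham and 73.2, 116, 90.6 and 99.7 CPM after burn. No burn library reached a sham library, and library 5 was the lowest.

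Bpgm, which makes the oxygen affinity regulator bisphosphoglycerate, had the largest fall of the late genes. It stood at 1496, 1458, 1467 and 1605 CPM in sham and 460.4, 629, 673 and 752 CPM after burn, at -1.26 ± 0.17 (SE, adjusted p = 9.55e-05), with no overlap and library 5 lowest. The ubiquitin-like conjugating enzyme Ube2l6 changed by -1.06, adjusted p = 2.65e-05 and the nuclear export factor Xpo7 by -0.64, adjusted p = 0.00525. Of 20 red cell membrane genes 18 fell and 1 rose. The anion exchanger band 3, Slc4a1, went from 3651, 3291, 3740.3 and 3328 CPM to 1696, 2119, 2198 and 2274 CPM, at -0.76 ± 0.13 (SE, adjusted p = 3.64e-04). The Rh protein Rhd changed by -0.83, adjusted p = 3.83e-04 and protein 4.1, Epb41, by -0.79, adjusted p = 5.49e-04. The riser was the glucose transporter Slc2a1, a gene that many other cells also express and that is in the hypoxia and glycolysis lists too, from 21.3, 21.7, 23.5 and 23 CPM in sham to 33.4, 43.8, 34.9 and 33.7 CPM after burn (0.70 ± 0.13 (SE, adjusted p = 7.60e-04)).

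Heme synthesis genes fell, with 13 of 14 lower, 1 higher and a median of -0.64. The enzymes of its first step moved in opposite directions. Alas2, the form of erythroid cells (chromosome X, 150547417 to 150570622, plus strand in mm10), stood at 2984, 3024, 3085 and 3249 CPM in sham and 1028, 1387, 1429 and 1598 CPM after burn. Alas1, the housekeeping form (chromosome 9, 106233455 to 106247954, minus strand), stood at 139, 134, 124 and 139.8 CPM in sham and 251, 238, 199.9 and 205 CPM after burn. Neither gene overlapped between the groups, library 5 was the lowest for Alas2 and the highest for Alas1, and the log2 fold change of Alas1 was 0.73 ± 0.09 (SE, adjusted p = 3.01e-05). Ferrochelatase, Fech, the last enzyme, changed by -0.86, adjusted p = 3.65e-04, the porphobilinogen-forming enzyme Alad by -0.73, adjusted p = 1.18e-04 and the mitochondrial iron importer Slc25a37 by -0.65, adjusted p = 0.00138.

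The windows of this pair are set side by side with that of the water channel Aqp1, the membrane gene with the smallest p. Alas1 had the smallest p of the heme list, and Alas2 was chosen after its values were seen. Their places on GRCm38.p6 in RefSeq are chr9:106247955-106248204, minus strand for Alas1, chrX:150547167-150547416, plus strand for Alas2 and chr6:55336049-55336298, plus strand for Aqp1.
Alas1: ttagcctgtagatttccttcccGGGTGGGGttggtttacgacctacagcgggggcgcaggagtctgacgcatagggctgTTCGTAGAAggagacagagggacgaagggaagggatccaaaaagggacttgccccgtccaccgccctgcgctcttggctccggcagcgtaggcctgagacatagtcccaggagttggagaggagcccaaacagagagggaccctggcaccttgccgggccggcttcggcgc
Alas2: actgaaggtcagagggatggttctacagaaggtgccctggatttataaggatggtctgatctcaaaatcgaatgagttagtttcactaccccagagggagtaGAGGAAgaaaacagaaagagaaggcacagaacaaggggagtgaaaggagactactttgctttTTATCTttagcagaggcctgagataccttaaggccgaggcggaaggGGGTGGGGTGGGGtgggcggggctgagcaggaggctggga
Aqp1: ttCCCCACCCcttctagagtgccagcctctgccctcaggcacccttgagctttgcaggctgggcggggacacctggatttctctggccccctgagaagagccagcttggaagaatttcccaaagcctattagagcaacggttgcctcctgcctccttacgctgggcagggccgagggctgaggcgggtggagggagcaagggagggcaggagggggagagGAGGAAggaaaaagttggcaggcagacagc
The Alas1 window holds a KLF match at 228 bases and a STAT match at 171 bases before the start. Alas2 holds GAGGAA at 148 bases, a GATA match at 86 bases and a pair of overlapping KLF matches at 40 and 35 bases, and Aqp1 a KLF match at 248 bases and GAGGAA at 30 bases. AGATAA occurs in 10.3% of all windows and in 6.24% of those of tested genes. For called genes the share is 7.92% in those lower after burn and 5.57% in those higher. Within the lists it occurs in 4 of 14 windows of red cell membrane genes, 1 of 11 of heme genes, 2 of 12 of early and 0 of 17 of late erythroid genes.

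**Figure D3:**
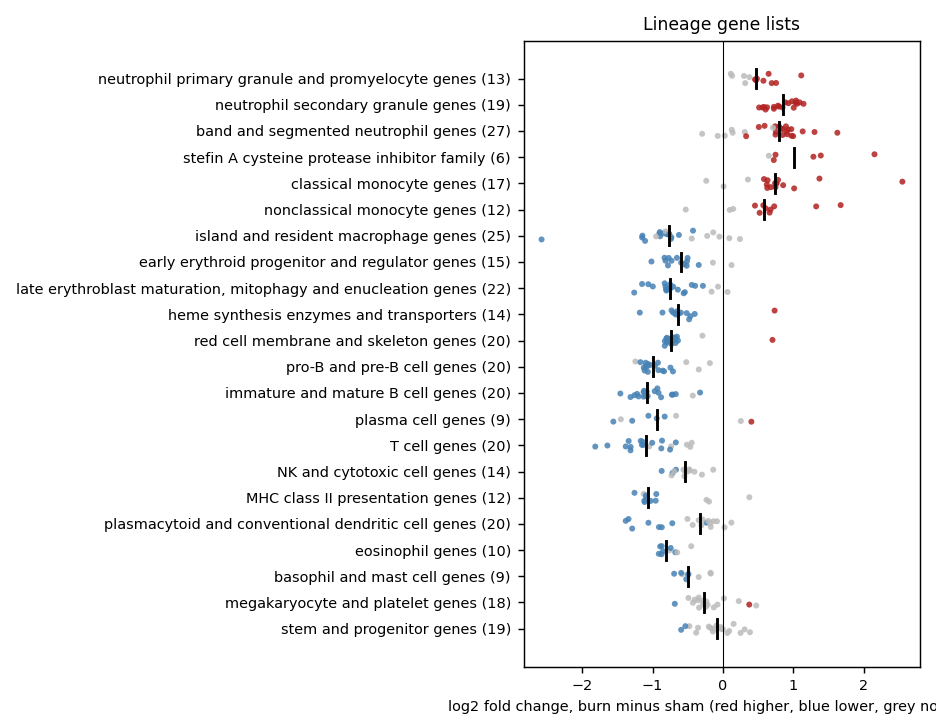
Log2 fold change of burn over sham for each tested member of 22 lineage lists (number tested in brackets), red where higher, blue where lower and grey where not called, with a black bar at the list's median. Neutrophil and monocyte lists lie right of 0, and erythroid, macrophage, B cell, T cell, MHC class II and eosinophil lists left of it.

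Lymphocyte genes fell. Of 20 pro-B and pre-B cell genes 16 fell and 0 rose, with a median of -1.001, and of 20 immature and mature B cell genes 19 fell and 0 rose, with a median of -1.08. Cd79a, the signalling chain of the B cell receptor, stood at 351, 409.8, 350.5 and 345 CPM in sham and 112, 191, 196 and 147 CPM after burn, at -1.17 ± 0.17 (SE, adjusted p = 3.64e-04). The groups were apart, with library 5 lowest. Il7r went from 81.6, 91.7, 99.7 and 137 CPM to 37, 35.3, 72.2 and 49.5 CPM, also without overlap, at -1.08 ± 0.23 (SE, adjusted p = 0.00538). The recombinase Rag2 changed by -1.13, adjusted p = 8.23e-04 and the surrogate light chain gene Vpreb3 by -1.11, adjusted p = 5.00e-04. The low-affinity IgE receptor Fcer2a of mature B cells changed by -1.31, adjusted p = 0.0138, the IgM receptor Fcmr by -1.22, adjusted p = 0.00503 and the survival receptor Tnfrsf13c by -0.88, adjusted p = 0.0127. The adaptor Blnk had the smallest p among pro-B and pre-B genes, and its promoter window held none of the 6 motifs.

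Of 9 plasma cell genes 5 fell and 1 rose, and 3 fell without library 1, 5, 7 or 8. The chaperone Mzb1 was lower, at -1.29, adjusted p = 4.17e-05, and the riser was the unfolded protein response factor Xbp1, used by other secretory cells as well, at 0.40, adjusted p = 0.008. Antibody joining chain, Jchain, at -1.45 was not called.

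Of 20 T cell genes 15 fell and 0 rose, with a median of -1.09. Leaving out any 1 library gave 10 to 17 lower T cell genes, with 10 without library 5 or 8. The coreceptor Cd8b1 stood at 11.1, 9.80, 6.53 and 12.3 CPM in sham and 1.25, 6.36, 2.17 and 1.64 CPM after burn, at -1.81 ± 0.47 (SE, adjusted p = 0.0138), and Cd4 at 23.1, 23.7, 20.5 and 22.6 CPM and 8.48, 18.1, 9.12 and 9.31 CPM, a 2.01-fold lower level (adjusted p = 9.40e-04). Library 6 was the highest of the burn group for both, close to the lowest sham library. The T cell factor Tcf7 changed by -1.31, adjusted p = 0.00368 and the kinase Lck by -0.88, adjusted p = 1.61e-04. Of 14 NK and cytotoxic cell genes 3 fell, 7 without library 6, 6 with scaling by library totals and 1 without library 1, 3, 4, 5 or 8, and the median was -0.55. The receptor chain Klrd1 was called in each fit with a library left out (-0.72, adjusted p = 0.0041).

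Of 12 MHC class II presentation genes 8 fell and 0 rose, and their summed level was 1815 to 2266 CPM in sham and 1012 to 1684 CPM after burn. H2-Aa, a class II alpha chain, stood at 256, 299, 235 and 243 CPM in sham and 85.1, 192, 100.2 and 101 CPM after burn, at -1.11 ± 0.24 (SE, adjusted p = 0.00509). Library 6 again lay between the other burn libraries and sham. The invariant chain Cd74 changed by -1.09, adjusted p = 0.00522 and the class II modulator H2-Ob by -1.26, adjusted p = 0.00162. In MHC class I, 1 of 16 genes fell and 0 rose, with a median of -0.02, and 2 fell without library 2 or 7 and 5 with scaling by library totals. The light chain B2m at -0.12 was not called. Of 20 dendritic cell genes 8 fell and 0 rose, among them the plasmacytoid marker Ly6d at -0.87, adjusted p = 0.00185 and the factor Irf4, which plasma and B cells also use, at -1.06, adjusted p = 0.00185.

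**Figure D4:**
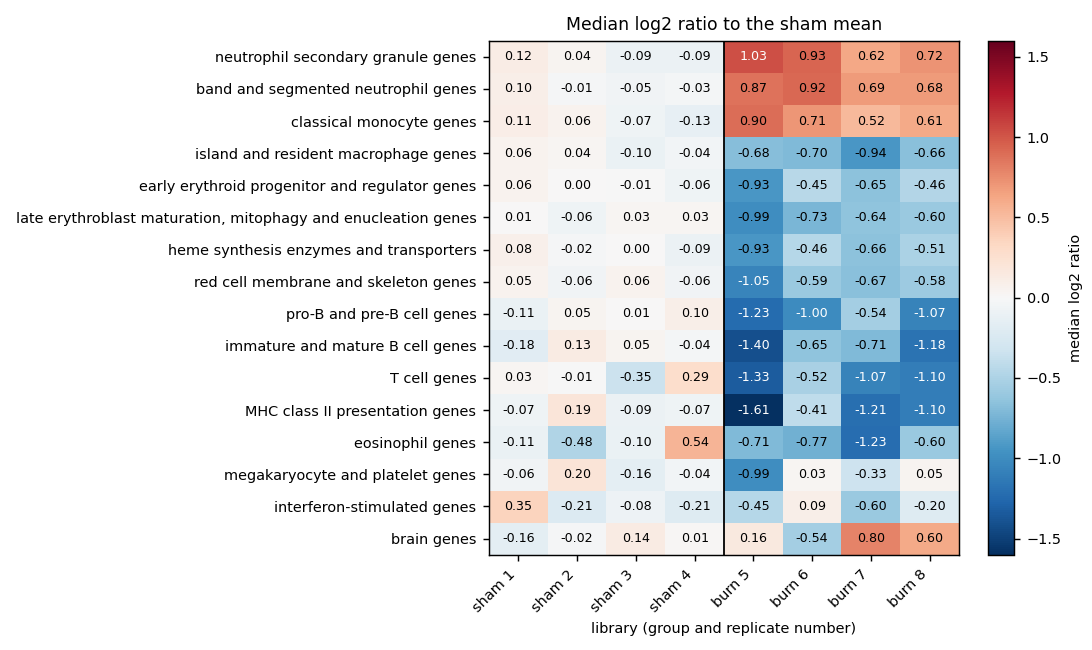
Median over list members of the log2 ratio of each library's level to the sham mean, for 16 lists in the 4 sham and 4 burn libraries. Burn libraries share the sign for neutrophil, monocyte, macrophage, erythroid, B, T, MHC class II and eosinophil lists, whereas megakaryocyte, interferon and brain lists differ in sign between them.

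The burn libraries differed among themselves in size of change. The median log2 ratio of late erythroid genes to the sham mean was -0.99, -0.73, -0.64 and -0.60 in libraries 5 to 8, that of mature B cell genes -1.40, -0.65, -0.71 and -1.18, and that of secondary granule genes 1.03, 0.93, 0.62 and 0.72. Library 5 was furthest from sham in all of these. For MHC class II genes the values were -1.61, -0.41, -1.21 and -1.10, with library 6 closest to sham. For the brain genes they were 0.16, -0.54, 0.80 and 0.60, lowest in library 6. Library 6 was the furthest of the 4 from sham for band and segmented neutrophil genes, at 0.92, against 0.87 in library 5. The part of the brain level in these differences was not tested. Megakaryocyte genes stood at -0.99, 0.03, -0.33 and 0.05, with library 5 alone far below sham, and 1 of 18 was called lower, the platelet tubulin Tubb1 at -0.68, adjusted p = 0.0147, and 1 higher. The number lower was 3 without library 8 and 2 with scaling by library totals or by DESeq2's Wald test, and the number higher was 2 without library 7 or by the Wald test and 3 with the brain score in the fit.

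Eosinophil genes fell in part. Of 10 genes 7 fell and 0 rose, but 3 fell without library 5 and 4 without library 4, without library 7 or when the brain score was a covariate. The major basic protein gene Prg2 stood at 2988, 2285, 2976 and 4461 CPM in sham and 1803, 1819.5, 1313 and 2018 CPM after burn, at -0.87 ± 0.21 (SE, adjusted p = 0.00914). Sham library 4 was the highest, and the lowest sham library was close to the highest burn library. The eotaxin receptor Ccr3 changed by -0.68, adjusted p = 0.00328. Of 9 basophil and mast cell genes 5 fell and 0 rose, with the basophil protease Mcpt8 at -0.69, adjusted p = 4.41e-04.

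Few genes of stem cell and non-blood lists were called. Rises numbered at most 1 and falls at most 2 in a list. Both are too few to tell apart from the 11.1% of all genes tested that were higher and the 9.92% lower. Calls were also rarer at low levels, at 7.0% of genes averaging 0 to 3 on the log2 CPM scale. Of 19 stem and progenitor genes 2 fell and 0 rose, with a median of -0.09, and the fallers were Gata2 and Mllt3 (-0.53, adjusted p = 6.04e-04), a regulator of stem cell maintenance. Of 18 stromal genes 2 fell and 1 rose, with alkaline phosphatase, Alpl, at -0.94, adjusted p = 0.00199 and the macrophage growth factor Csf1 at -0.55, adjusted p = 0.00493, while Cxcl12 at -0.28 was not called. Osteopontin, Spp1, the stromal gene that rose at 0.51, adjusted p = 0.0452, was not called in any of the 8 fits with 1 library left out (log2 fold changes 0.41 to 0.55, adjusted p from 0.0591 to 0.157), and without library 8 the number that fell was 3. Of 6 osteoclast genes 1 fell, the phosphatase Acp5 at -0.77, adjusted p = 5.56e-04, and of 14 endothelial genes 1 fell, the scavenger receptor Stab2 at -0.59, adjusted p = 0.0165, a call lost without library 3, 5 or 7 (log2 fold changes -0.55 to -0.47, adjusted p from 0.0519 to 0.0554). Of 8 muscle genes 1 fell, of 9 heart genes 1, and of 10 lens genes 1, and none of these lists had a riser. The number of muscle genes that fell was 2 with scaling by library totals. The lens gene, Bfsp2 at -0.76, adjusted p = 0.0154, was not called without library 3 or 4 (log2 fold changes -0.68 to -0.65, adjusted p from 0.054 to 0.0599). Of 18 brain genes 1 was called higher, the myelin gene Mbp at 0.29, adjusted p = 0.0347, and it was not called in any of those 8 fits (log2 fold changes 0.26 to 0.30, adjusted p from 0.0567 to 0.0915). The medians were 0.35 for brain, 0.35 for lens and 0.28 for heart genes on the log2 scale, with 16 of 18, 9 of 10 and 8 of 9 values above 0. The brain list stood at 0.80 and 0.60 in libraries 7 and 8.

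Among 26 interferon-stimulated genes 19 had values below 0. Of the 26 genes 5 fell and 2 rose, with a median of -0.30, where 9.92% of all genes tested were lower and 11.1% higher. The number that fell was 1 without library 1, 5 or 7, 2 without library 8, 12 without library 6 or with scaling by library totals, 10 by DESeq2's Wald test and 8 with the brain score in the fit. The number that rose was 3 without library 1 or with that score in the fit and 1 without library 2, 3, 4, 5, 6 or 8, in the 8 isotype libraries alone or with scaling by library totals. Sham library 1 stood high, with the list at 0.35 above the sham mean on the log2 scale. Ifit3, an antiviral RNA-binding protein, stood at 20.9, 9.49, 8.93 and 8.56 CPM in sham and 3.98, 9.49, 3.86 and 5.01 CPM after burn, which overlapped, and its call at -1.11, adjusted p = 0.0216 was lost without library 1 (-0.69, adjusted p = 0.0893), library 5 (-0.98, adjusted p = 0.0806), library 7 (-0.97, adjusted p = 0.062) or library 8 (-1.06, adjusted p = 0.0599). The antiviral enzyme Rsad2 fell, at -0.76, adjusted p = 0.00183, and the oligoadenylate synthetase Oas2 rose, at 0.85, adjusted p = 0.0072. The interferon-induced transmembrane proteins, also abundant in myeloid cells, are a separate list, with 4 of 6 higher and a median of 0.92. Ifitm1 stood at 35, 29.2, 39.1 and 32.3 CPM in sham and 119, 111, 98.5 and 106 CPM after burn, with no overlap, at 1.68 ± 0.11 (SE, adjusted p = 1.65e-07). Ifitm6 changed by 1.30, adjusted p = 3.79e-06, Ifitm2 by 1.09, adjusted p = 8.29e-06 and Ifitm3 by 0.75, adjusted p = 0.00458. In the schlafen family 4 of 8 rose and 1 fell, with Slfn4 at 1.36, adjusted p = 5.04e-06 and Slfn14 at -0.78, adjusted p = 0.00227, and 2 rose without library 2, 3, 4 or 5.

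Several genes of innate sensing rose, where 11.1% of all genes tested were higher and 9.92% lower. Falls numbered at most 2 in each list that follows, too few to tell apart from that 9.92%. Of 20 Toll-like receptor and adaptor genes 11 rose and 1 fell, and the faller, the DNA sensor Tlr9 at -0.39, adjusted p = 0.0248, was not called without library 1, 2, 7 or 8 (log2 fold changes -0.39 to -0.33, adjusted p from 0.0554 to 0.0854). The risers included Tlr4, the lipopolysaccharide receptor, at 0.97, adjusted p = 1.87e-05, Tlr2 at 0.83, adjusted p = 1.48e-04 and the adaptor Myd88 at 0.76, adjusted p = 8.04e-05. Of 19 IL-1 family and inflammasome genes 8 rose and 1 fell, and the faller, the cytokine Il18 at -0.59, adjusted p = 0.0117, was not called without library 4 (log2 fold change -0.50, adjusted p = 0.0505). The number that fell was 2 without library 1 or 2, with the brain score as a covariate, by DESeq2's Wald test or with scaling by library totals. The risers included pyrin, Mefv, at 1.11, adjusted p = 5.15e-06 and the noncanonical inflammasome caspase Casp4 at 0.91, adjusted p = 1.55e-04. Of 23 NF-kB and TNF family genes 6 rose and 2 fell, and of the fallers the inhibitor Tnfaip3 at -0.33, adjusted p = 0.0236 was not called without library 1, 3, 5 or 8 (log2 fold changes -0.32 to -0.29, adjusted p from 0.05 to 0.079). The number that fell was 3 without library 4 or 6 or in the 8 isotype libraries alone, and with scaling by library totals 5 rose and 6 fell. The risers included Tnf at 0.68, adjusted p = 0.00426 and its receptors Tnfrsf1a at 0.66, adjusted p = 2.37e-04 and Tnfrsf1b at 0.62, adjusted p = 0.00145. Of 16 leukotriene and prostaglandin genes 7 rose and 1 fell, and the faller, the prostaglandin-degrading enzyme Hpgd at -0.43, adjusted p = 0.0434, was not called without library 1, 2, 4, 5, 6 or 7 (log2 fold changes -0.47 to -0.35, adjusted p from 0.0548 to 0.132). The number that fell was 2 without library 8, in the 8 isotype libraries alone or by the Wald test, 3 with scaling by library totals and 0 with the brain score in the fit. The risers included the lipoxygenase Alox5 at 0.69, adjusted p = 1.40e-04 and its activating protein Alox5ap at 0.76, adjusted p = 4.34e-04. Of 16 metalloproteinase and sheddase genes 8 rose and 0 fell, with Adam15 at 1.03, adjusted p = 3.96e-06. Among 8 tested genes of myeloid suppressor and alternatively activated cells 4 rose and 0 fell. The small secreted inhibitor Wfdc17 stood at 21, 15.7, 21.5 and 13.1 CPM in sham and 102, 66.8, 65 and 72.1 CPM after burn, with library 5 highest and no overlap, at 2.10 ± 0.18 (SE, adjusted p = 5.83e-06). Arg1, Nos2, Il10 and Ido1 of that list fell below the expression filter.

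Genes of sugar metabolism rose. Of 19 tested glycolysis genes 15 rose and 0 fell, with a median of 0.51, while the enolase gene Eno1 had 8 counts over the 8 libraries and fell below the filter. Of 16 glycogen and pentose phosphate genes 12 rose and 1 fell, with a median of 0.51. G6pdx, the entry enzyme of the pentose phosphate pathway, stood at 332, 306, 333 and 293 CPM in sham and 756, 683, 576 and 602 CPM after burn, with no overlap, at 1.05 ± 0.10 (SE, adjusted p = 3.79e-06). The lactate transporter Slc16a3 changed by 0.83, adjusted p = 5.10e-04, the hexokinase Hk3 by 0.77, adjusted p = 3.76e-05, pyruvate kinase, Pkm, by 0.75, adjusted p = 9.75e-05, and glycogenin, Gyg, which primes glycogen, by 0.94, adjusted p = 2.82e-05. The faller, Pgls, makes phosphogluconate, at -0.33, adjusted p = 0.00279. Of 17 hypoxia-inducible genes 9 rose and 1 fell, and the faller, the histone demethylase Kdm3a at -0.26, adjusted p = 0.0422, was not called without library 2, 3, 4, 5, 6 or 8 (log2 fold changes -0.28 to -0.23, adjusted p from 0.0635 to 0.129), and 2 fell with scaling by library totals. The risers included the glycolysis regulator Pfkfb4 at 0.76, adjusted p = 8.34e-05 and the oxygen-sensitive factor Hif1a at 0.41, adjusted p = 0.0116. Of 21 cholesterol genes 12 rose and 0 fell, with Msmo1 at 0.82, adjusted p = 1.99e-05 and Fdps at 0.79, adjusted p = 2.58e-04 among the synthesis enzymes.

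**Figure D5:**
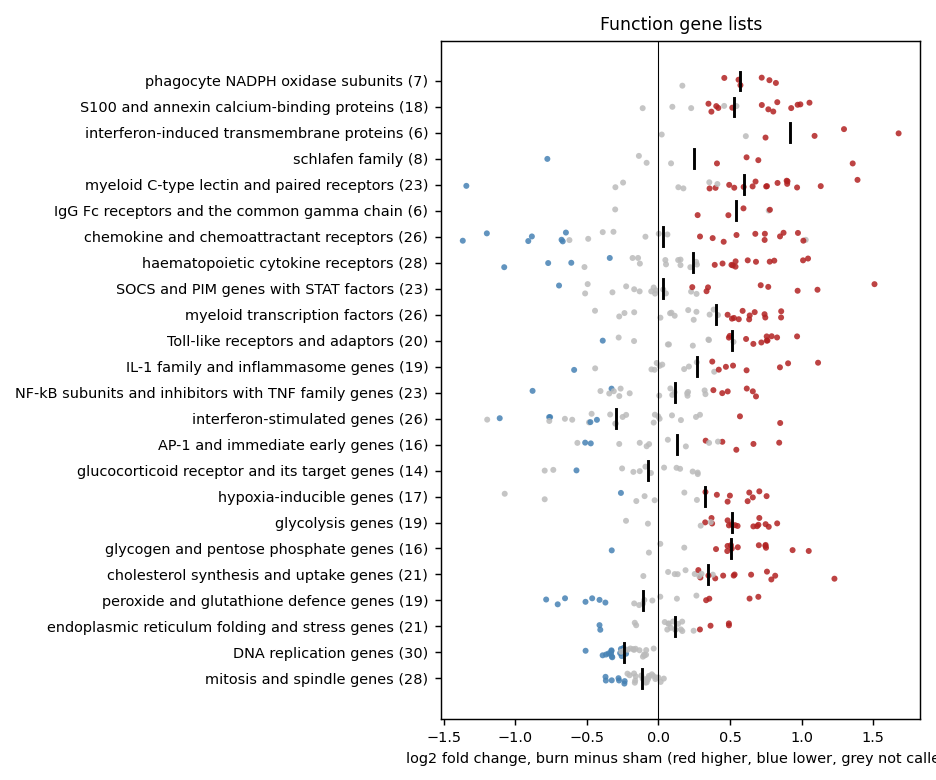
Log2 fold change of burn over sham for each tested member of 24 function lists (number tested in brackets), red where higher, blue where lower and grey where not called, with a black bar at the list's median. Glycolysis, glycogen and pentose phosphate, oxidase and Toll-like receptor lists lie mostly right of 0, while DNA replication genes lie left of it by small amounts.

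Cell cycle genes changed little in size. Of 30 DNA replication genes 16 fell and 0 rose, with a median of -0.24, and 26 fell with scaling by library totals alone. Leaving out any 1 library gave 11 to 18 lower replication genes, with 11 without library 1 or 8. The origin protein Orc1 changed by -0.51, adjusted p = 8.94e-04 and the loading factor Cdc6 by -0.39, adjusted p = 0.00174. Of 28 mitosis and spindle genes 7 fell and 0 rose, with a median of -0.12, and 2 fell without library 1, 3 without library 5, 4 without library 8 and 16 with scaling by library totals. The kinetochore protein Cenpf changed by -0.37, adjusted p = 0.00291, and topoisomerase Top2a at -0.07 was not called. With scaling by library totals Top2a was called lower (-0.18, adjusted p = 0.0296).

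The largest rises outside lymphoid and erythroid lists included secreted and enzymatic genes that the lineage lists do not hold. Prok2, a chemokine-like peptide of neutrophils and other cells, stood at 2.04, 1.62, 5.84 and 2.27 CPM in sham and 33.4, 32.8, 11.1 and 12.6 CPM after burn, at 2.93 ± 0.47 (SE, adjusted p = 8.14e-04). Sham library 3 was the highest of its group, and libraries 5 and 6 were well above 7 and 8. Endothelial lipase, Lipg, went from 3.72, 2.94, 7.36 and 8.11 CPM to 51.4, 34, 26.1 and 32.4 CPM, at 2.70 ± 0.36 (SE, adjusted p = 2.50e-04). Uridine phosphorylase, Upp1, went from 7.18, 4.32, 6.87 and 4.10 CPM to 34.4, 29, 25.7 and 31.2 CPM, at 2.42 ± 0.17 (SE, adjusted p = 3.21e-07). All burn libraries were above all sham libraries for both. Acod1, which makes itaconate in activated myeloid cells, stood at 4.08, 2.13, 6.87 and 5.39 CPM and 15.3, 24, 17.2 and 16.6 CPM, at 1.98 ± 0.29 (SE, adjusted p = 1.59e-04). The secreted-protein kinase Fam20c changed by 1.90, adjusted p = 5.65e-05, the BMP9 receptor Acvrl1 by 1.63, adjusted p = 1.17e-05, the adhesion molecule Mcam by 1.49, adjusted p = 0.00515 and the semaphorin Sema6b by 1.44, adjusted p = 1.32e-05. Sphingolipid galactosyltransferase B4galt6 (1.10, adjusted p = 5.03e-07) was among the 5 genes with the smallest p.

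Among the 15 largest falls Ccr7 stood at 19, 28.1, 20.9 and 20.9 CPM in sham and 7.35, 10.8, 9.46 and 6.91 CPM after burn, without overlap. The meiotic recombination gene Rec114 changed by -1.29, adjusted p = 2.72e-05, the kinase Mapk11 by -1.20, adjusted p = 0.00101 and the R-spondin receptor Lgr5 by -1.24, adjusted p = 6.40e-04. Each was lower in all 4 burn libraries than in any sham library, as the rule that chose them requires.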

How the data were processed

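Polyadenylated RNA of whole marrow was sequenced from strand-marking libraries, per the labels' protocols. The deposited values are whole-number counts per gene, not normalised, 1 column per library. The submitters' processing notes name TopHat2 and mm10. For the counter, its use of strand and the gene annotation, nothing is given in the sources used here, and counts of overlapping or near-identical genes are therefore uncertain. Starts in the table were raised by 1, since 11378 of 14702 genes with the same end as in RefSeq started 1 lower. Of 24415 symbols 27 that had become dates were restored by identifier.

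Genes were filtered with filterByExpr, scaled with TMM factors and tested with edgeR 4.0.16 in R 4.3.3 by a robust quasi-likelihood fit to all 12 libraries with 1 mean per group (9 residual degrees of freedom), 2-sided, with Benjamini-Hochberg adjustment over 15283 genes at 0.05. SE values were obtained by dividing each absolute log2 fold change by the root of its F statistic. CPM uses the TMM-scaled totals. On simulated counts of this comparison over 15283 genes, 27, 35, 40 and 47 of 50 genes changed 1.5, 2, 3 and 4-fold were recovered, with 7 of 156 calls false. Far fewer genes were changed there than the 3207 called in the data, so these rates need not hold for the reported fit. Nothing in the labels says that libraries came from separate mice, so p-values cover only the spread between libraries, and that spread may be technical. Chi-square values per degree of freedom of 5.81 to 31.9 within groups gave no sign of a repeated library.

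The comparison, the 61 gene lists (some genes are in more than 1), the named genes and the alternatives were chosen with earlier results of these data known, so list counts are descriptions, to be read against the 11.1% of all genes tested that were higher and the 9.92% that were lower. The rule named the 15 largest rises and falls at an average of 3 or more on the log2 CPM scale whose groups did not overlap, up to 4 called members with the largest change, up to 3 most abundant members and called members against the majority of each list, the 5 smallest p-values, and Spic, Csf3, Csf3r, Gata1, Klf1, Epor, Vcam1, Hmox1, Socs3, Stat3, Alas2, Cxcr4, Cxcr2 and Vcan, of which the text gives some. Certain genes are not reported here. Promoter windows are the 250 bases before the annotated start in RefSeq, present for 12042 tested genes, each searched on both strands. Alternatives used DESeq2 1.42.0 (size factors and Wald test), limma 3.58.1 (voom), other filters and scalings, a brain score covariate, the 8 isotype libraries alone, stricter thresholds and each library left out. As brain score, log2 CPM was averaged over the 18 brain genes.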

Additional observations from a re-analysis of the deposited data

Results flagged for a closer look

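Of 708 groups of 4 libraries checked, for 354 named genes in sham and in burn, 38 held 1 library far from the other 3 by Dixon's test at 95%. Chance alone flags about 1 in 20 such groups. The flags were spread unevenly, with 10, 10, 3 and 0 in burn libraries 5 to 8 and 7, 2, 4 and 2 in sham libraries 1 to 4. No explanation was weighed.

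In sham library 1, Mapk11 was low at 6.78 CPM against 11.3 to 11.6 CPM and Slfn1 was high at 209 CPM against 144 to 153 CPM in the other 3. Likewise, Tnfrsf13c was low at 34.3 CPM against 43.5 to 44.9 CPM and Ifit3 was high at 20.9 CPM against 8.56 to 9.49 CPM. In the same library, Isg15 was high at 144 CPM against 91.4 to 96.6 CPM and Hif1a was high at 102 CPM against 88.9 to 89.5 CPM. There, Calr was high at 729 CPM against 654 to 665 CPM. In sham library 2, Cd79a was high at 409.8 CPM against 345 to 351 CPM and Eng was high at 31 CPM against 27.6 to 28 CPM in the other 3. In sham library 3, Prok2 was high at 5.84 CPM against 1.62 to 2.27 CPM and Mcam was high at 15.3 CPM against 5.03 to 5.39 CPM in the other 3. Likewise, Pou2af1 was low at 238 CPM against 273 to 279 CPM and Ckm was high at 11 CPM against 6.29 to 7.07 CPM. In sham library 4, Alpl was high at 9.45 CPM against 7.16 to 7.40 CPM and Edem1 was high at 234 CPM against 219 to 219 CPM in the other 3.

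In burn library 5, Ms4a6d was high at 45.2 CPM against 35.5 to 36.9 CPM and Lrp1 was high at 365 CPM against 264 to 276 CPM in the other 3. Likewise, Blvrb was low at 109 CPM against 153 to 156 CPM and Ccr2 was high at 823 CPM against 488 to 537 CPM. In the same library, Fn1 was high at 1300.5 CPM against 863 to 926 CPM and Csf3r was low at 573 CPM against 659.9 to 665 CPM. There, Il17ra was high at 424 CPM against 384 to 389 CPM and Adam15 was high at 159 CPM against 116 to 121 CPM. Further, Tubb1 was low at 27 CPM against 51.5 to 53.7 CPM and B4galt6 was high at 110.5 CPM against 92.4 to 93.4 CPM. In burn library 6, Car1 was high at 142 CPM against 105 to 107 CPM and Slc2a1 was high at 43.8 CPM against 33.4 to 34.9 CPM in the other 3. Likewise, Treml2 was high at 277 CPM against 190.5 to 204 CPM and Il2rg was high at 79.9 CPM against 61 to 62.6 CPM. In the same library, Bcl3 was high at 87.8 CPM against 37.8 to 45.2 CPM and Derl3 was high at 3.54 CPM against 1.11 to 1.52 CPM. There, Cd5 was high at 3.23 CPM against 1.38 to 1.48 CPM and Cd4 was high at 18.1 CPM against 8.48 to 9.31 CPM. Further, H2-Aa was high at 192 CPM against 85.1 to 101 CPM and Myc was high at 66.7 CPM against 50.7 to 52.6 CPM. In burn library 7, Alox15 was low at 134 CPM against 205 to 216 CPM and Rag2 was high at 16.8 CPM against 8.82 to 10.1 CPM in the other 3. Likewise, Irf4 was high at 81.7 CPM against 45.5 to 47.5 CPM.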

How the results depend on the processing

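No call shared with the reported fit changed sign under any alternative run. At an adjusted p of 0.01, 1127 genes were higher and 841 lower, 99 of the lower over 2-fold. A test against a 1.5-fold change called 76 higher and 17 lower genes, 64 and 15 of them over 2-fold. Scaling by library totals gave 2846 lower genes, with 80 higher and 235 lower over 2-fold. With 1 library left out, 1275 to 1761 genes were higher and 1077 to 1679 lower, 86 to 143 and 80 to 190 over 2-fold, and all 4 lowest counts came without replicate 5. The remaining alternatives gave 1505 to 2050 higher and 1408 to 1714 lower genes, within 1.5 times the reported counts. Of 303 called named genes 256 were called in all 8 fits without 1 library, and none reversed. No paired analysis was possible because library numbers run from 1 to 12 and none occurs in both groups. Depth limits the rarest genes most: below an average of 0 on the log2 CPM scale the median SE was 0.59, against 0.083 at 6 or above.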

Other observations

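Genes of peroxide and glutathione defence split after burn, with 4 higher and 7 lower of 19. The fallers included enzymes that red cells hold in large amounts, among them peroxiredoxin 2, Prdx2, at 957, 823, 815 and 739.9 CPM in sham and 434, 580.4, 482 and 551 CPM after burn, without overlap (-0.70 ± 0.12 (SE, adjusted p = 4.72e-04)). Catalase, Cat, changed by -0.65, adjusted p = 4.15e-04, Gpx1 by -0.46, adjusted p = 0.0139 and the glutathione-synthesis subunit Gclc by -0.78, adjusted p = 3.94e-05. The risers included glutathione reductase, Gsr, at 500.2, 489, 486 and 531 CPM in sham and 846, 815, 716 and 741 CPM after burn, also without overlap (0.64 ± 0.11 (SE, adjusted p = 4.44e-04)), and the mitochondrial and peroxisomal peroxiredoxin Prdx5 at 0.70, adjusted p = 0.00148.

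In the BCL2 family 3 of 18 genes were higher and 1 lower, against 11.1% higher and 9.92% lower among all genes tested. Bcl2l1, which encodes the survival factor Bcl-xL of late erythroblasts and other cells, stood at 267, 250.4, 250.5 and 262 CPM in sham and 154, 159.7, 180.0 and 193 CPM after burn, without overlap (-0.58 ± 0.12 (SE, adjusted p = 0.00163)). The count of higher genes was 0 without library 3, 1 without library 2, 4, 5 or 6, 2 without library 1 and 4 without library 7, and it was 1 with scaling by library totals. The number lower was 2 without library 1 or 6, with the brain score as a covariate or by DESeq2's Wald test, 3 in the 8 isotype libraries alone and 4 with scaling by library totals. Of 21 endoplasmic reticulum folding and stress genes 4 were higher and 2 lower, with Sdf2l1 at 0.49, adjusted p = 9.39e-04 and the stress-induced Herpud1 at -0.41, adjusted p = 0.00103, and 1 lower without library 1, 5 or 7. Of 16 AP-1 and immediate early genes 5 were higher and 2 lower, with Ier3 at 0.84, adjusted p = 3.73e-04 and Jund at -0.51, adjusted p = 1.63e-04, and 4 lower with the brain score as a covariate. Of 14 genes of the glucocorticoid receptor and its targets 0 were higher and 1 lower, the metallothionein Mt2 at -0.57, adjusted p = 0.00975, and the receptor Nr3c1 at 0.15 was not called.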
